A study of Mus musculus with 10 samples.

Results

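Monocytes reach the mouse spleen as classical and as non-classical cells, and 10 genes that mark them were followed in the RNA of 10 spleens from mice with serum-induced arthritis. The 5 classical genes were Ly6c2, Ccr2, Vcan, F13a1 and Fn1, and the 5 genes of non-classical, patrolling monocytes were Treml4, Ace, Cx3cr1, Spn and Eno3. They are 10 of the 54532 genes in the deposited expression table, taken by gene name, and all 10 were among the 21296 genes that passed the filter on low values. The 10 were selected on their difference between DUSP6 KO and wild-type (WT) spleens, so that difference is described for them, and the counts past a threshold given for them below are no evidence of it.

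DUSP6 is a phosphatase that removes activating phosphates from the kinases ERK1 and ERK2. The 5 DUSP6 KO mice carried the Dusp6tm1Jmol allele, homozygous by their titles, although their genotype label reads knockdown, and the 5 controls were WT C57BL/6J mice. Both strains were purchased, and the methods do not say that the groups were littermates. By the methods the mice were 8 to 12 weeks old. All 10 received 100 µL of serum from arthritic KRN x NOD F1 mice into the peritoneum on days 0 and 2, which causes KRN serum-induced arthritis (KSIA), and whole spleens were taken on day 9. There was no arthritis-free group, so nothing here separates the genotype in arthritis from the genotype at rest. Each library is 1 spleen and carries the number of its mouse: 26, 21, 73, 01 and 03 for DUSP6 KO, and 65, 67, 73, 77 and 83 for WT (mouse 73 of each group is a different animal). Values below are given in these orders, in FPKM, the number of fragments scaled to gene length and library depth, so that levels of different genes can be compared.

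Between 14990474 and 19822673 reads lay in genes per DUSP6 KO library and between 15611652 and 18422147 per WT library. Dusp6 itself was at 0.308 to 0.624 FPKM in the DUSP6 KO and 16.6 to 24.0 FPKM in the WT libraries. All libraries were male by their transcripts (Xist at most 0.0206 and Ddx3y at least 14.4 FPKM). Across all genes tested with limma, 7 were lower in DUSP6 KO (0.0329%) and 8 higher (0.0376%) at an adjusted p of 0.05 or less, and the total of 15 became 34 without DUSP6 KO mouse 21. At an unadjusted p under 0.05, 646 genes (3.03%) were lower and 559 (2.62%) higher. All DUSP6 KO libraries lay below all WT libraries for 120 genes (0.563%) and above them for 117 (0.549%). These shares are the background for the counts below.

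Classical monocytes leave the bone marrow through the chemokine receptor CCR2, carry the surface protein Ly6C at a high level and enter inflamed tissue, where they can become macrophages or dendritic cells. Non-classical monocytes carry little Ly6C and much of the fractalkine receptor CX3CR1, crawl along the inner wall of blood vessels, and arise largely from classical monocytes under the control of the nuclear receptor NR4A1. The spleen holds a reservoir of both. Most of the 10 genes are not exclusive to monocytes. Fibronectin is made by stroma and macrophages, CD43 (Spn) by T cells, ACE by endothelium, and CX3CR1 by NK cells and some macrophages and dendritic cells.

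Ly6c2 has a near-identical neighbour, Ly6c1, which endothelium and lymphocytes express, and their likeness bears on how far the counts for Ly6C can be trusted. Their coding sequences are 393 bases each and match at 384 bases (97.7%), with 9 differences and one run of 188 identical bases. The first 300 coding bases of each, from the spliced GENCODE M21 transcripts, are shown with the 7 differing bases in capitals.
Ly6c2: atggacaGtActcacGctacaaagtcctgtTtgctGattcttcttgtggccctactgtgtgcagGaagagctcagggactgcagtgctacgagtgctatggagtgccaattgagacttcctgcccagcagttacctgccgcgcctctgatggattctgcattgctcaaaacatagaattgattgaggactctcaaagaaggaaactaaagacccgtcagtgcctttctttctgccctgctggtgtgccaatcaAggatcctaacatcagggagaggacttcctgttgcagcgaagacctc
Ly6c1: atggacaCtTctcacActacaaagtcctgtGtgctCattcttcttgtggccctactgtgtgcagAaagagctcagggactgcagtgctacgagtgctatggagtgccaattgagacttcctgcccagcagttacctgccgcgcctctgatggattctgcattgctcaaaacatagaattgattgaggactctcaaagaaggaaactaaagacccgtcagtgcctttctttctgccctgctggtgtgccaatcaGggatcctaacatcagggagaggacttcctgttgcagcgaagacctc
A read from the long identical run alone cannot be placed between these genes. Over the exons of all Ly6c2 transcripts, 159 of 2737 windows of 100 bases (5.81%) also occur in Ly6c1. Fn1 shares 1.2% of its windows with Apol7d and Ace 1.88% with Gm11651. No window of Vcan, F13a1, Treml4, Cx3cr1, Spn or Eno3 occurs in another gene.

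All 10 genes are protein coding, and their positions are those of GRCm38. The classical genes are Ly6c2 at chr15:75108158-75111970 (minus strand), Ccr2 at chr9:124101950-124113557 (plus), Vcan at chr13:89655312-89742509 (minus), F13a1 at chr13:36867178-37050244 (minus) and Fn1 at chr1:71585520-71653200 (minus). The non-classical genes are Treml4 at chr17:48264295-48275360 (plus), Ace at chr11:105967945-105989964 (plus), Cx3cr1 at chr9:119901616-120069879 (minus), Spn at chr7:127132232-127137823 (minus) and Eno3 at chr11:70657202-70662513 (plus). Exons of F13a1, Fn1, Ace and Cx3cr1 overlap exons of a gene on the opposite strand (Gm30489, Apol7d, Gm11651 and Gm33858) over 1.1%, 2.5%, 5.58% and 1.73% of their exonic bases. Whether counting used the strand is not given in the sources used here, so reads in those stretches cannot be assigned to either gene with certainty.

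The promoters of Vcan and F13a1, the classical genes whose groups did not overlap and were lower in DUSP6 KO, and of Treml4 and Ace, the non-classical gene whose groups did not overlap and the one with the largest log2 fold change, are shown as the 250 bases before the RefSeq start (GRCm38.p6), 5′ to 3′ on the gene's strand. Capitals mark GAGGAA or its reverse complement TTCCTC, the core bound by PU.1, the ETS factor that myeloid cells depend on. F13a1 and Ace each have a further RefSeq promoter that is not shown. That of F13a1, chr13:37049214-37049463, holds 0 matches in its 250 bases, and that of Ace also holds 0.
Vcan, chr13:89742513-89742762: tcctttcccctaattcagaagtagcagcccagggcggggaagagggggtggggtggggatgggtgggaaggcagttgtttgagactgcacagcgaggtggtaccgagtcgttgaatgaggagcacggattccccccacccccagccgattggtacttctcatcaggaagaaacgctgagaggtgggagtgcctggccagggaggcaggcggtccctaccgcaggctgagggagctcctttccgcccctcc
F13a1, chr13:37050245-37050494: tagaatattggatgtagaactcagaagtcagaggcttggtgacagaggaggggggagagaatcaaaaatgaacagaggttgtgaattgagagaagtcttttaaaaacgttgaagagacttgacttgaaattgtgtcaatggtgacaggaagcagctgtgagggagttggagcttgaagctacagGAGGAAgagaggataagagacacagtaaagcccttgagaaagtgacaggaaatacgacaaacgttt
Treml4, chr17:48264045-48264294: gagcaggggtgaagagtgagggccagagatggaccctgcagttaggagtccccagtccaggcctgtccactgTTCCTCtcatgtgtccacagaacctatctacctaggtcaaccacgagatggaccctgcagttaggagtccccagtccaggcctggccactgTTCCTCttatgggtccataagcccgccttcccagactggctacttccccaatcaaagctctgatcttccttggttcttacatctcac
Ace, chr11:105967698-105967947: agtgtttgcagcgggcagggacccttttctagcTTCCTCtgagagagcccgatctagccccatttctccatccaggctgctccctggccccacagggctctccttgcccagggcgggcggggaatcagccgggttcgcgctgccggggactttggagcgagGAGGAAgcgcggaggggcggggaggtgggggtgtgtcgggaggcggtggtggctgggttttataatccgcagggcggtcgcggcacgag
RefSeq promoters were found for 9 of the 10 genes, with 12 promoters in all. In windows of 300 bases (250 before and 50 after the start), searched on both strands, GAGGAA occurred in 6 of the 12, against 28.3% of 32851 mouse promoters. The 2 Ly6c2 windows share 266 of 300 bases and hold the same matches, and by gene it occurred in 4 of 9 (Ly6c2, F13a1, Treml4 and Ace). TTGCNNAA, bound by C/EBP factors, occurred in 0 of the 12 and in 10.8% of all promoters. AAAGGTCA, bound by NR4A factors, occurred in 0 of the 12 and in 1.51% of all. The letters alone do not show that a factor binds.

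Of the classical genes, Vcan and F13a1 stood lower in every DUSP6 KO spleen than in any WT spleen, as did 0.563% of all genes. Ly6c2 and Ccr2 were lower on average with overlapping groups, and Fn1 was at the same mean in both. On the log2(FPKM + 0.1) scale, 5 of 5 fitted differences were negative, with a median of -0.53 against -0.0046 over all genes tested. In whole spleen, fewer cells of a type and less RNA per cell cannot be told apart.

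Vcan encodes versican, a large matrix proteoglycan that classical monocytes express. It was at 0.0963, 0.160, 0.349, 0.137 and 0.0542 FPKM in the DUSP6 KO spleens. In the WT spleens it was at 0.522, 0.601, 0.670, 0.640 and 0.509 FPKM. The groups did not overlap, and DUSP6 KO mouse 73 came nearest to WT. The means were 0.159 ± 0.114 against 0.588 ± 0.071 (SD, n = 5 each), and the fitted log2 fold change was -1.50 (SE 0.30). These are low levels, resting on 13 to 74 reads per DUSP6 KO library and 129 to 167 per WT library. The pseudocount of 0.1 FPKM therefore shrinks the fitted value, which was -2.13 in voom on the reads. The CV between spleens was 71.2% in DUSP6 KO and 12.1% in WT.

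F13a1 encodes the A subunit of coagulation factor XIII, the transglutaminase that crosslinks fibrin, which monocytes and platelets carry. It was at 2.36, 3.15, 4.20, 2.20 and 2.54 FPKM in DUSP6 KO. The WT spleens held 4.95, 4.32, 6.65, 10.8 and 5.85 FPKM. No DUSP6 KO spleen reached the lowest WT spleen, mouse 67, and WT mouse 77 was far above the other WT mice. The means were 2.89 ± 0.82 and 6.51 ± 2.54 (SD, n = 5 each), and the log2 fold change was -1.11 (SE 0.25), or -0.91 without WT mouse 77.

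Ly6c2 encodes Ly6C, the surface protein by which classical monocytes are sorted. Its FPKM values were 34.9, 25.6, 36.3, 14.9 and 27.6 in DUSP6 KO. In WT they were 32.1, 35.3, 35.3, 53.6 and 38.7. DUSP6 KO mice 21, 01 and 03 lay below all WT spleens, while mice 26 and 73 lay within the WT range. The means were 27.9 ± 8.6 and 39.0 ± 8.5 (SD, n = 5 each), and the log2 fold change was -0.53 (SE 0.23). Its neighbour Ly6c1 was at 27.0 ± 5.6 FPKM against 25.5 ± 1.6 FPKM in WT, with a log2 fold change of 0.06 (SE 0.13, adjusted p = 0.99 by limma).

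Ccr2 encodes the receptor for the monocyte chemoattractants CCL2, CCL7 and CCL12. The DUSP6 KO spleens were at 5.34, 9.24, 8.70, 5.11 and 5.61 FPKM. The WT spleens were at 8.81, 10.3, 11.8, 9.20 and 7.15 FPKM. DUSP6 KO mice 26, 01 and 03 lay below the WT range and mice 21 and 73 within it, so the mice were split differently than for Ly6c2. The means were 6.80 ± 2.00 and 9.44 ± 1.72 (SD, n = 5 each), and the log2 fold change was -0.50 (SE 0.20).

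Fn1 encodes fibronectin, a matrix glycoprotein. It was at 8.60, 15.6, 13.4, 11.4 and 15.8 FPKM in the DUSP6 KO spleens, and at 11.6, 12.5, 14.9, 14.4 and 11.5 FPKM in WT. The DUSP6 KO spleens spread on both sides of the WT range, with 2 below and 2 above it. Its log2 fold change was -0.03 (SE 0.16) and took the other sign in 4 of 20 alternative settings, between -0.11 and 0.11.

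The non-classical genes lay the other way. All 5 fitted differences were positive (median log2 fold change 0.47), and Treml4 alone had groups that did not overlap, in the direction of 0.549% of all genes. Ace differed most in fold and Spn least.

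Treml4 encodes a receptor of the TREM family found on non-classical monocytes and on splenic macrophages and dendritic cells. Its levels were 36.3, 55.6, 51.8, 41.4 and 33.6 FPKM in DUSP6 KO. They were 33.3, 33.2, 30.3, 27.1 and 31.3 FPKM in WT. The gap between the groups was narrow, from 33.3 in WT mouse 65 to 33.6 in DUSP6 KO mouse 03. The means were 43.8 ± 9.6 and 31.0 ± 2.5 (SD, n = 5 each). The log2 fold change was 0.47 (SE 0.14), and the CV was 21.9% in DUSP6 KO and 8.17% in WT.

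Ace encodes angiotensin-converting enzyme, the peptidase that makes angiotensin II. The DUSP6 KO spleens held 10.1, 12.2, 6.70, 8.02 and 9.82 FPKM. The WT spleens held 5.56, 7.96, 4.74, 3.62 and 3.47 FPKM. DUSP6 KO mouse 73 was the only one below the highest WT spleen, mouse 67. The means were 9.38 ± 2.11 and 5.07 ± 1.83 (SD, n = 5 each), and the log2 fold change of 0.91 (SE 0.23) was a 1.88-fold higher level in DUSP6 KO.

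Cx3cr1 encodes the receptor for fractalkine (CX3CL1), which supports the survival of patrolling monocytes. It was at 9.80, 17.3, 8.48, 12.2 and 13.9 FPKM in DUSP6 KO. The WT values were 8.56, 9.48, 8.38, 6.76 and 9.00 FPKM. The DUSP6 KO spleens exceeded every WT spleen, except for mouse 73, which lay within the WT range. The log2 fold change was 0.51 (SE 0.18), or 0.38 without DUSP6 KO mouse 21.

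Eno3 encodes beta-enolase, a glycolytic enzyme best known from muscle. The DUSP6 KO values were 12.5, 11.9, 13.6, 9.93 and 14.9 FPKM. The WT values were 11.6, 10.4, 9.30, 6.40 and 10.04 FPKM. DUSP6 KO mouse 01 lay within the WT range and the other 4 above it. The log2 fold change was 0.40 (SE 0.16), or 0.27 without WT mouse 77.

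Spn encodes CD43, a sialomucin of leukocytes that non-classical monocytes carry at a high level. It was at 41.3, 31.8, 38.3, 36.6 and 34.2 FPKM in the DUSP6 KO spleens, and at 32.1, 30.3, 32.8, 36.4 and 35.2 FPKM in WT. DUSP6 KO mice 26, 73 and 01 lay above the WT range, and the log2 fold change was 0.12 (SE 0.09). Spn varied least of the 10 genes, with a CV of 10.02% in DUSP6 KO and 7.36% in WT.

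**Figure D1:**
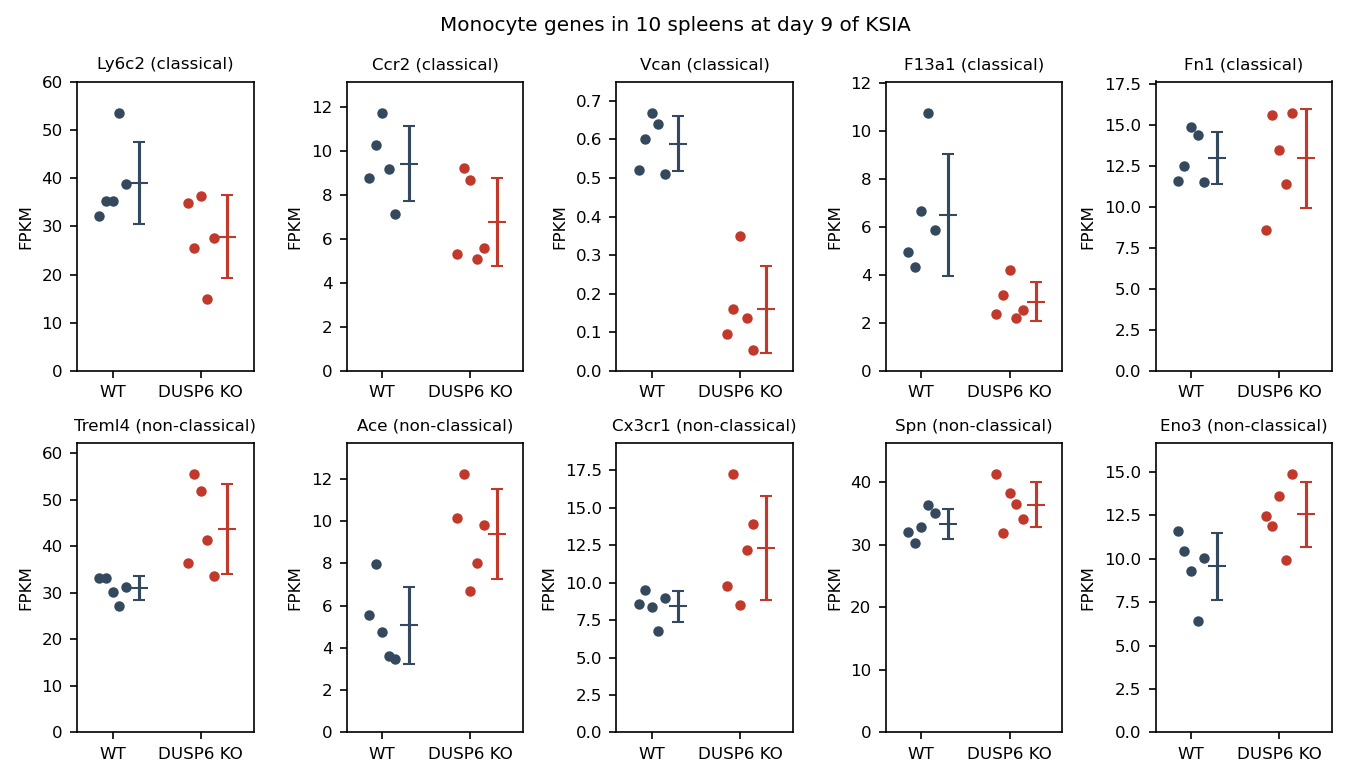
FPKM of the 10 monocyte genes in each spleen (points) with the mean and SD beside them, WT left in dark blue and DUSP6 KO right in red, on axes that start at 0. The DUSP6 KO points lie wholly below the WT points for Vcan and F13a1 and wholly above them for Treml4, and the groups overlap for the other 7 genes.

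With p-values adjusted over all 21296 genes, 0 of the 5 classical and 0 of the 5 non-classical genes passed the threshold of 0.05 in limma, against the 0.0329% and 0.0376% given above. How often differences of their sizes would pass that threshold was not tested. At an unadjusted p under 0.05, 4 classical genes were lower and 4 non-classical genes higher, beside 3.03% and 2.62% of all genes. Since the genes were chosen by this contrast, the counts add nothing to how they were chosen. The classical count was 2 without DUSP6 KO mouse 01, DUSP6 KO mouse 03, WT mouse 67 or WT mouse 73. Voom on the recovered reads also gave 4 and 4 at an unadjusted p under 0.05 and 1 classical gene, Vcan, past the adjusted threshold. The paper, with the authors' own test on counts, also lists Vcan as significantly lower in DUSP6 KO.

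**Figure D2:**
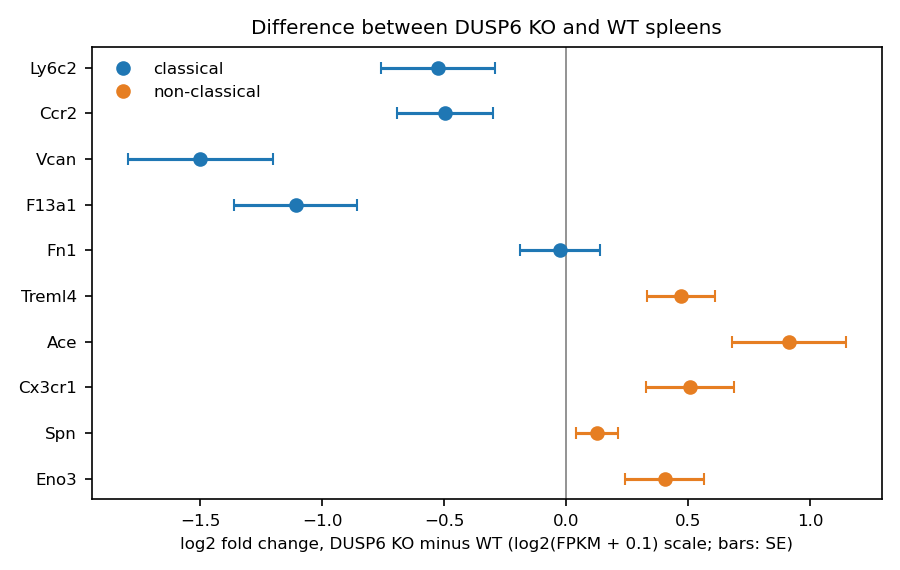
Log2 fold change of each monocyte gene, DUSP6 KO minus WT, on the log2(FPKM + 0.1) scale with its standard error from limma (5 spleens per group), classical genes in blue and non-classical genes in orange. The classical genes run from -1.50 for Vcan to -0.03 for Fn1 and the non-classical genes from 0.12 for Spn to 0.91 for Ace.

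The order of the levels differed between the groups. In WT spleens Ly6c2 had the highest mean, followed by Spn, Treml4, Fn1, Eno3, Ccr2, Cx3cr1, F13a1, Ace and Vcan. The ranges of neighbours in that order overlapped except between Treml4 and Fn1 and between Ace and Vcan. In DUSP6 KO spleens Treml4 had the highest mean and Ly6c2 came after Treml4 and Spn, followed by Fn1, Eno3, Cx3cr1, Ace, Ccr2, F13a1 and Vcan. There the ranges of neighbours overlapped except between Ccr2 and F13a1 and between F13a1 and Vcan.

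As a mean log2 value per spleen, the 5 classical genes were at 2.13 ± 0.33 in DUSP6 KO and 2.86 ± 0.21 in WT (SD, n = 5 each). The 5 non-classical genes were at 4.21 ± 0.13 and 3.73 ± 0.18. Neither mean overlapped between the groups, and the choice of genes by this contrast favours that. The non-classical mean exceeded the classical mean by 1.51 to 2.32 in the DUSP6 KO spleens and by 0.30 to 1.18 in the WT spleens. DUSP6 KO mouse 73 had the smallest difference in its group and WT mouse 77 the smallest in all.

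**Figure D3:**
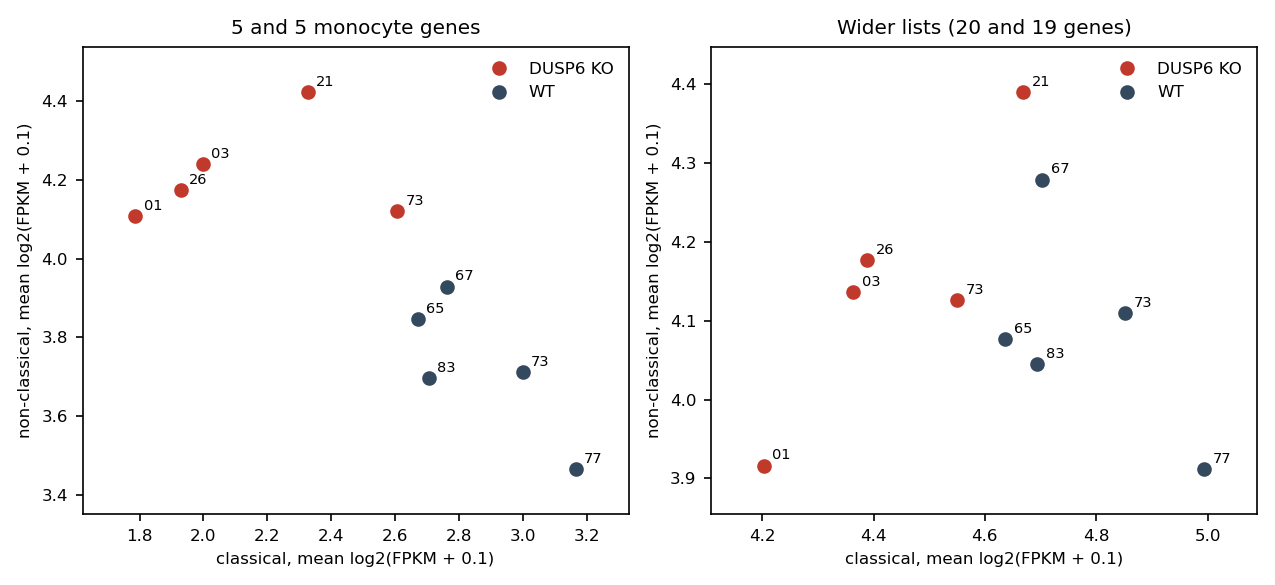
Mean log2(FPKM + 0.1) of classical genes (x axis) against non-classical genes (y axis) in each spleen, labelled by mouse number, for the 10 genes (left) and for wider lists of 20 and 19 other monocyte genes (right). With the 10 genes the DUSP6 KO spleens lie above and to the left of the WT spleens, and with the wider lists the groups mix on the y axis, between 3.92 and 4.39 in DUSP6 KO and between 3.91 and 4.28 in WT.

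Further genes of the same cells had smaller median differences, and none passed the adjusted threshold. Of 20 further genes of classical monocytes, 15 were lower and 5 higher in DUSP6 KO, and their median log2 fold change was -0.25 (-0.0046 over all genes). The lowest adjusted p was 0.68 in limma, and voom also passed 0 of them. At an unadjusted p under 0.05, 5 passed in limma, all lower (in voom also 5), beside 3.03% of all genes. Chil3, a chitinase-like secreted protein, was at 41.5 ± 17.3 FPKM against 92.1 ± 59.5 FPKM in WT (log2 fold change -1.04, SE 0.37, adjusted p = 0.75 by limma). Hp, haptoglobin, which binds free haemoglobin, was at 23.0 ± 9.8 and 43.5 ± 19.8 FPKM. Mmp8, a collagenase, was at 4.48 ± 2.14 and 9.41 ± 5.57 FPKM. Ms4a4c, a membrane protein, had a log2 fold change of -0.48 (SE 0.16), and S100a6, a calcium-binding protein, of -0.42 (SE 0.14). The members with the lowest p among those higher were Lyz2 (lysozyme), with a log2 fold change of 0.16 (SE 0.15), Tmem176b with 0.07 (SE 0.13) and Gda (guanine deaminase) with 0.10 (SE 0.35). Chil3, Hp and Mmp8 are also genes of neutrophils, whose markers are given below.

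Of 20 further genes of non-classical monocytes, 19 were tested, 13 were higher and 6 lower, and the median log2 fold change was 0.12. Apoc2 was at 0 in all libraries but WT mouse 67 and was not tested. In limma and voom 0 of the 19 passed an adjusted p of 0.05 (lowest 0.75 in limma). At an unadjusted p under 0.05, 1 was higher and 1 lower in limma (in voom 3 genes), beside 2.62% and 3.03% of all genes. Single genes are not read as a result for the list. The higher count was 2 without DUSP6 KO mouse 73 or 01 or WT mouse 65 or 67, and the lower count was 2 without DUSP6 KO mouse 21 and 0 without DUSP6 KO mouse 01. The higher one was Ear2, an eosinophil-associated ribonuclease of monocytes, at 39.2 ± 5.7 FPKM in DUSP6 KO and 31.5 ± 3.0 in WT (log2 fold change 0.31, SE 0.11). The lower one was Pglyrp1, a peptidoglycan-recognition protein that neutrophil granules also hold, with a log2 fold change of -0.55 (SE 0.21). Dusp5, a phosphatase of ERK like DUSP6, had a log2 fold change of 0.37 (SE 0.18) and Adgre4, an adhesion receptor, of 0.18 (SE 0.11). Ceacam1 had -0.17 (SE 0.11) and Pou2f2, a transcription factor, -0.17 (SE 0.17). Nr4a1, on which non-classical monocytes depend, was at 15.01 ± 4.39 and 12.6 ± 2.8 FPKM, and limma gave a log2 fold change of 0.23 (SE 0.23, adjusted p = 0.98).

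The difference between the 2 wider lists per spleen, non-classical minus classical mean log2 value, was -0.29 ± 0.08 in DUSP6 KO and -0.69 ± 0.25 in WT (SD, n = 5 each). The groups overlapped only where DUSP6 KO mouse 73, at -0.4244, met WT mouse 67, at -0.4236. Most of the difference lay in the classical list, whose mean differed by -0.34 (DUSP6 KO minus WT), against 0.06 for the non-classical list. The classical list includes Chil3, Hp and Mmp8, which are also neutrophil genes. The lists were drawn up with results of these data known.

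Of 28 genes of monocyte development and traffic, 14 were higher and 14 lower, and the median of 0.0029 changed sign in 5 of 20 alternatives. In limma and voom 0 of the 28 passed an adjusted p of 0.05 (lowest 0.50 in limma). At an unadjusted p under 0.05, 3 passed (in voom also 3), beside 2.62% of all genes higher and 3.03% lower. The 2 higher ones, Csf1r and Ccl7, lay higher in every DUSP6 KO than in any WT spleen, as did 0.549% of all genes. Of the 3, 1 was lower, and 3 genes were lower without DUSP6 KO mouse 21 or WT mouse 77. The 2 higher ones became 1 without DUSP6 KO mouse 26 and 3 without DUSP6 KO mouse 73. Csf1r encodes the receptor for CSF1, the growth factor of monocytes and macrophages. It was at 138.5, 179.9, 164.5, 135.8 and 148.9 FPKM in DUSP6 KO. In WT it was at 123.5, 132.7, 121.6, 96.8 and 116.9 FPKM. The groups did not overlap, the log2 fold change was 0.38 (SE 0.11), and the adjusted p was 0.56 by limma. Csf1, its ligand, had a log2 fold change of 0.17 (SE 0.17, adjusted p = 0.98 by limma).

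The ligands of CCR2 were near the limit of detection. Ccl7 rested on 1 to 7 reads per DUSP6 KO library against 0 to 1 per WT library, so its groups were set apart by single reads. Ccl12 rested on 0 to 5 reads against 1 to 12 in WT. The fitted log2 fold changes of both depended on the pseudocount and are not read as sizes. Ccl2 was at 0.490 ± 0.091 and 0.517 ± 0.164 FPKM, on 5 to 14 reads. Cx3cl1, the ligand of CX3CR1, was at 0.902 ± 0.226 and 0.874 ± 0.353 FPKM. Notch2, through which cells receive Notch signals for the non-classical fate, had a log2 fold change of -0.29 (SE 0.15), and its ligand Dll1 of 0.25 (SE 0.19). Flt3, a receptor of dendritic cell progenitors, had -0.29 (SE 0.15).

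Of 16 genes related to the 10 by family, 10 passed the filter, 9 with a negative fitted difference and 0 with an unadjusted p under 0.05 in limma or voom. That count was 2 without DUSP6 KO mouse 21 and 1 without WT mouse 67, all lower, and 1 higher with no filter. Eno1, the enolase of most tissues, had a log2 fold change of -0.05 (SE 0.09).

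**Figure D4:**
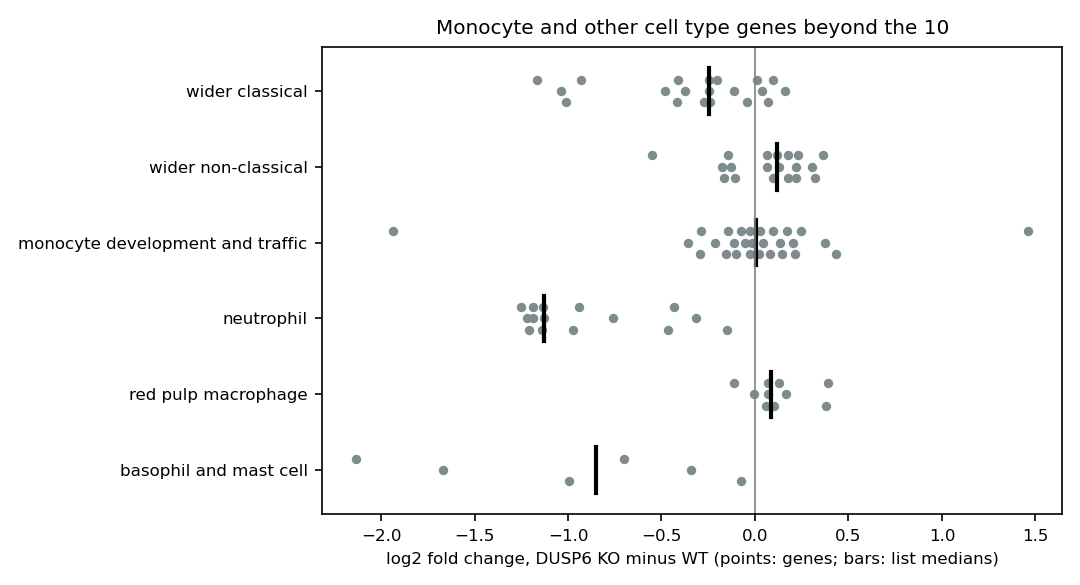
Log2 fold change, DUSP6 KO minus WT, of each tested gene (points) in 3 monocyte lists beyond the 10 genes and in 3 lists of other cells, with the median of each list as a black bar. The medians were -0.25 for the wider classical, 0.12 for the wider non-classical, 0.0029 for the development, -1.13 for the neutrophil, 0.09 for the red pulp macrophage and -0.85 for the basophil and mast cell list.

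Markers of other cells were lower beside the classical genes. All 15 neutrophil genes had a negative difference (median -1.13 on the log2 scale). In limma 7 of them passed an unadjusted p under 0.05, beside 3.03% of all genes lower. At an adjusted p of 0.05, 0 passed in limma (lowest 0.75), and voom gave the same counts. Without single libraries that count of 7 ranged from 2 (DUSP6 KO mouse 01 or 03, WT mouse 73 or 77) to 11 (DUSP6 KO mouse 73 or WT mouse 67). Their summed level was 632 to 2110 FPKM, against 1214 to 5335 FPKM in WT, overlapping, with none of the 15 at 0 in any library. Of 6 basophil and mast cell genes, 6 were lower, and their sum was 6.63 to 11.3 FPKM, against 17.1 to 43.8 FPKM in WT, without overlap and with none at 0. Mast cell proteases outside that list did not follow it. Mcpt4 was at 2.28 to 6.41 FPKM, against 0.353 to 1.25 FPKM in WT, Tpsb2 at 1.58 to 2.93, against 0 to 0.779, and Cma1 at 1.33 to 3.20, against 1.33 to 3.99. Megakaryocyte and platelet genes summed to 220 to 314 and 210 to 491 FPKM, all 6 tested ones being lower, and Gp1bb was at 0 in some libraries. The part of these cells in the classical values was not tested.

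Beside the non-classical genes, the markers of red pulp macrophages, which can carry Treml4, summed to 1114 to 1689 FPKM, against 1190 to 1444 FPKM in WT. Of these 10 genes 8 were higher and 2 lower (median 0.09 on the log2 scale). At an unadjusted p under 0.05 in limma, 2 were higher, beside 2.62% of all genes. Among these, Adgre1 (F4/80) was higher in every DUSP6 KO spleen, at 40.2 to 59.5 FPKM against 33.1 to 38.3 FPKM in WT. It alone of the 10 had groups that did not overlap, in the direction of 0.549% of all genes. Adgre1 was named after its values were seen. Conventional dendritic cell genes, 5 higher and 4 lower, summed to 44.3 to 63.1 FPKM, against 44.6 to 63.5 FPKM in WT. Of 8 NK cell genes, 1 was higher and 7 lower (median -0.19 on the log2 scale). The NK cell genes summed to 36.1 to 74.7 FPKM, against 40.8 to 101.1 FPKM in WT. In each of these lists 1 gene was lower in every DUSP6 KO than in any WT spleen, as were 0.563% of all genes. Endothelium and stroma genes, 5 higher and 5 lower, summed to 170 to 253 FPKM, against 151 to 177 FPKM in WT. Their mean log2 value was nearly the same, at 3.17 ± 0.24 in DUSP6 KO and 3.16 ± 0.16 in WT (SD, n = 5 each). At an unadjusted p under 0.05 in limma, 2 were higher and 0 lower, beside 2.62% and 3.03% of all genes (lowest adjusted p 0.25). T cell genes, 5 higher and 3 lower, summed to 179 to 386 FPKM, against 227 to 326 FPKM in WT. The part of these cells in the non-classical values was not tested.

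How the genes varied between spleens of one genotype does not use the contrast by which they were chosen. Each value was taken as its deviation from its group mean on the log2 scale, over all 10 libraries. All 10 pairs of classical genes had a positive Pearson's r, from 0.04 for Ly6c2 and Fn1 to 0.68 for Ccr2 and Vcan, with a median of 0.45. Of the 10 pairs of non-classical genes, 6 were positive, and the 4 negative ones were those of Spn, down to -0.84 with Cx3cr1. The median was 0.17, and the highest was 0.60 for Ace and Cx3cr1. Of the 25 pairs across the kinds, 12 were positive with a median of -0.01, the highest being 0.69 for Ccr2 and Treml4. These are descriptions over 10 libraries that share depth, tissue makeup and scaling.

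With the mean log2 values of 14 gene lists, 168 such correlations were computed for the 10 genes and their 2 means, and the ones named here were chosen after their values were seen. F13a1 went with the neutrophil genes (r = 0.96, rho = 0.90, and r = 0.86 without the 2 libraries farthest out). Fn1 went with endothelium and stroma (r = 0.90, rho = 0.93, r = 0.81). Treml4 went with red pulp macrophage genes (r = 0.84, rho = 0.87, r = 0.72), Ace with conventional dendritic cell genes (r = 0.87, rho = 0.73, r = 0.68) and Ly6c2 with basophil and mast cell genes (r = 0.86, rho = 0.92, r = 0.76). Vcan ran against the T cell genes (r = -0.90, rho = -0.84, r = -0.80). The classical mean went with the wider classical list (r = 0.88, rho = 0.82, r = 0.91) and the non-classical mean with the wider non-classical list (r = 0.86, rho = 0.81, r = 0.87). The non-classical mean went as closely with conventional dendritic cell genes (r = 0.86, rho = 0.79, r = 0.69). With NK cell and with plasmacytoid dendritic cell genes r was 0.78, and 0.59 and 0.57 without the 2 libraries farthest out. The classical mean also went with the neutrophil list (r = 0.82, rho = 0.64), where r was 0.54 without the 2 libraries farthest out.

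**Figure D5:**
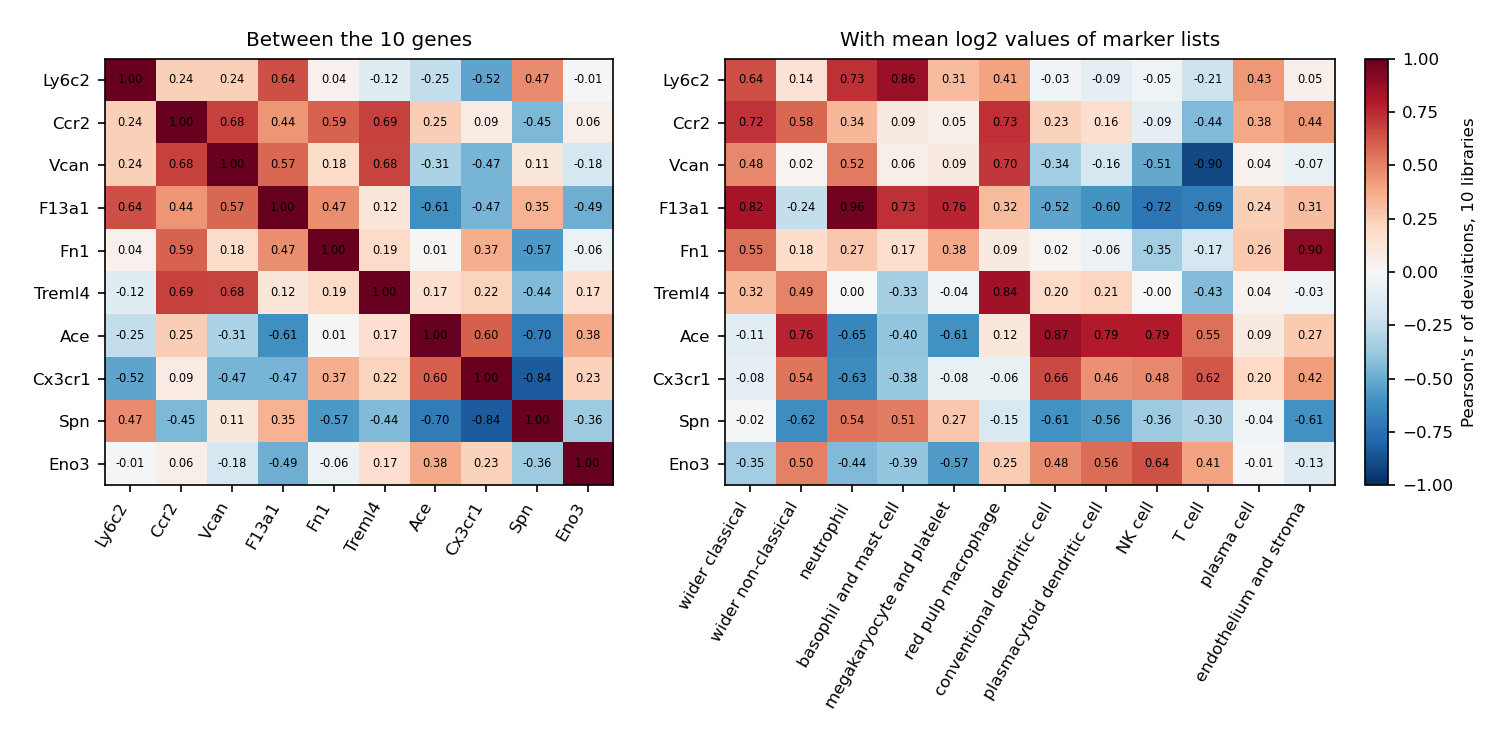
Pearson's r of deviations from the group mean of log2(FPKM + 0.1) over 10 libraries, between the 10 genes (left) and of each gene with the mean of 12 marker lists (right), red for positive and blue for negative. The upper left block of classical pairs is red throughout (0.04 to 0.68), Spn is blue against the other non-classical genes, and among the darkest cells on the right are F13a1 with neutrophil genes (0.96) and, in blue, Vcan with T cell genes (-0.90).

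Among 13413 other genes at 1 FPKM or more on average, those whose deviations were most like the classical mean over the 10 libraries were Tmed10 (r = 0.95), Vsir (0.92), Prkar2a (0.92), Hp (0.91) and Ptgs1 (0.89). Of these Hp is in the wider classical list. Most like the non-classical mean were Nagpa (0.98), Zkscan6 (0.98), Slc25a45 (0.97), Stoml1 (0.97) and Ptprj (0.97). None of these 5 is in a monocyte list used here. Choosing 5 of 13413 genes over 10 libraries favours high values of r.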

How the data were processed

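Poly-A RNA of 10 spleens (5 DUSP6 KO, 5 WT) was sequenced in pairs. The authors used Hisat2 for alignment and featureCounts 1.5.0-p3 for counting, and deposited FPKM values for 54532 genes, which are the only values used. The submitters' processing notes name hg38, but 98% of the genes have the same position in GENCODE M21 (mouse GRCm38). The setting for strand is not given in the sources used here. The authors' own test on counts was not repeated.

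Reads per gene were recovered by multiplying FPKM with gene length and dividing by the smallest step found in that library. Of the values above 0, leaving out genes with the most reads, 100% came within 0.02 of a whole read. The library total behind FPKM was 0.949 to 1.12 times the reads in genes.

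DUSP6 KO and WT were compared with limma 3.58.1 (R 4.3.3) on log2(FPKM + 0.1), using lmFit and a mean-dependent trend in eBayes. Genes below 0.1 FPKM on average were left out, p-values were adjusted by Benjamini and Hochberg's method, and 0.05 was the threshold. On simulated data with 200 genes changed 4-fold it recovered 182 (91%), with 9 false calls among 21282 genes. Smaller changes were not simulated. Among the classical and non-classical genes the largest fitted difference on this scale was 2.83-fold, for Vcan. The share recovered therefore does not show how often differences of their sizes would pass. The settings varied were the pseudocount (1 and 0.01), the filter (1 FPKM on average, or none), eBayes without trend, quantile normalization, TMM factors, library totals that leave out haemoglobin, mitochondrial, immunoglobulin and T cell receptor genes, voom on the recovered reads, leaving out each library and, chosen after seeing the data, reads in genes as the library total.

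The 10 genes and the lists were chosen with earlier results of these data known. Beside the 10, the text names from each monocyte list the 3 genes with the lowest unadjusted p in each direction, and the 5 genes most like each mean. Hp, Mmp8, Adgre1, Mcpt4, Tpsb2 and Cma1 were added after their values were seen, and Nr4a1, Csf1, Ccl2, Cx3cl1, Ly6c1 and Eno1 for their roles. A related gene is not reported here. Tables and figures were made with Python 3.11.15, data.table (R, version 1.17.8), pandas 2.3.3, Biopython 1.88 and matplotlib 3.10.9.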

Additional observations from a re-analysis of the deposited data

Results flagged for a closer look

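Single libraries stood apart from the other 4 of their group by Dixon's test at its 95% critical value. This was so in 6 of 50 combinations of a gene or a list mean with a group, all 6 of them for genes (chance gives about 1 in 20). WT mouse 77 had 195 FPKM of Chil3, where the next WT spleen had 83.9, 78 FPKM of Hp against 42.6, and 41.1 FPKM of Pglyrp1 against 24.4. DUSP6 KO mouse 73 had 71.9 FPKM of Chil3 against 39.5 in the next DUSP6 KO spleen. Ccl7 was at 0.0724 FPKM in WT mouse 73 and at 0 in the other WT spleens, which is a single read. With the others at 0, any read in that library is flagged, so the chance rate does not apply there. Ccl12 was at 0.499 FPKM in DUSP6 KO mouse 26 and 0.0859 in the next. None of the 10 monocyte genes had such a library. The same mice were high for neutrophil genes, whose mean log2 value was 6.83 in WT mouse 77 (4.87 to 5.90 in the other WT spleens) and 5.64 in DUSP6 KO mouse 73 (4.24 to 4.83 in the others), and the part of this in the values was not tested.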

How the results depend on the processing

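Results were computed under 20 alternatives (19 for Vcan, Ccl12, Ccl2 and Cx3cl1, 18 for Ccl7). Of the 10 genes Fn1 changed sign, as did the development and traffic median. Of 27 other named genes 6 did (Tmem176b, Gda, Ccl2, Cx3cl1, Ly6c1 and Eno1). Of the 10 monocyte genes, 0 of 5 non-classical genes passed the adjusted threshold in any, and 1 of 5 classical genes, Vcan, did in voom, and the cause was not tested. The median log2 fold change of the classical genes ranged from -0.64 to -0.41 when single libraries were left out and from -0.54 to -0.46 in the other alternatives. That of the non-classical genes ranged from 0.38 to 0.53 and from 0.46 to 0.48. With single libraries left out, the wider classical median ranged from -0.36 to -0.18 and the wider non-classical median from 0.04, without DUSP6 KO mouse 21, to 0.17. Over all genes, 10 to 34 passed when single libraries were left out, 34 of them without DUSP6 KO mouse 21, and 11 to 16 otherwise, against 15, and the cause was not tested. Genes with few reads depended on the pseudocount. The log2 fold change of Vcan was -0.46 with a pseudocount of 1, -2.05 with 0.01 and -2.13 in voom, that of Ccl7 was 0.28, 3.75 and 2.45, and that of Ccl12 was -0.57 and -3.82 with the pseudocounts. With a minimum mean of 1 FPKM, Vcan, Ccl7 and Ccl12 were not tested. No paired analysis was possible because the groups share only the number 73, for different mice.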
